A study of Mus musculus with 3 samples.

Results

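The binding of CLK and BMAL1 was examined at Nr1d1 and Nr1d2, the genes of the nuclear receptors REV-ERBα and REV-ERBβ. All rows that carry either symbol in the annotated table of peaks were taken, whatever their class, together with every peak of both peak lists that shared at least 1 bp with them. This gave 5 of the 2127 rows, 4 at Nr1d1 and 1 at Nr1d2. All 5 belong to the 211 CLK:BMAL1 peaks, those called with both antibodies, and there were 0 rows of the BMAL1 only class and 0 of the CLK only class at either gene. The chromatin came from the livers of adult C57BL/6 mice, 3 to 6 months of age, kept under 12 h of light and 12 h of darkness and killed at ZT8, a time 8 h after lights on. The labels name no allele and no drug for any sample. ChIP-seq, the sequencing of DNA recovered with an antibody, was done with anti-CLK, with anti-BMAL1 and without antibody (Input), each as 1 library and all from the same liver extract. No value has a replicate, so no difference between antibodies or between genes was tested against biological error. The intervals given for tag counts are exact 95% intervals and cover counting error only. The libraries held between 18846303 (Input) and 37371047 (CLK) mapped tags. Peak lists hold no expression values, so the liver label was not checked against tissue markers.

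CLK and BMAL1 form a dimer that binds e-boxes, with CACGTG as the canonical sequence, and activates the genes next to them. REV-ERBα and REV-ERBβ lack activating function and act as repressors. They recruit the NCoR corepressor with the histone deacetylase HDAC3 and compete with the ROR receptors for AGGTCA preceded by a stretch of A and T. Through such sites they repress Bmal1 itself, which closes the second loop of the clock, and in liver they also act on genes of lipid metabolism.

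The Nr1d1 sites were spread over 10411 bp between the outermost CLK summits, whereas the Nr1d2 site was a single peak at the start of the gene. Both genes lie on the minus strand, Nr1d1 on chromosome 11 from 98629246 to 98636647 and Nr1d2 on chromosome 14 from 19036568 to 19071641 (NCBIM37, the assembly called mm9, with GENCODE M1 annotation). Along the direction of transcription, the Nr1d1 sites are named here upstream, promoter, 5′ intron and 3′ intron. The upstream CLK peak (chr11:98644403-98645139) lay between genes, its summit 8133 bp before the annotated start of Nr1d1 and 12050 bp from that of Msl1, the next gene on that side. The promoter CLK peak (chr11:98636166-98637193) spanned the start, and its summit fell 16 bp inside the 5′ UTR. The 5′ intron peak (chr11:98634888-98635752) and the 3′ intron peak (chr11:98634126-98634641) had their summits in the first intron, 1479 and 2278 bp after the start. The Nr1d2 CLK peak (chr14:19070688-19071458) also had its summit in the first intron, 545 bp after the start. The authors' table counts from UCSC transcripts that begin 91 bp (Nr1d1) and 135 bp (Nr1d2) further into the genes, and by that start the promoter peak is listed as intergenic.

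**Figure D1:**
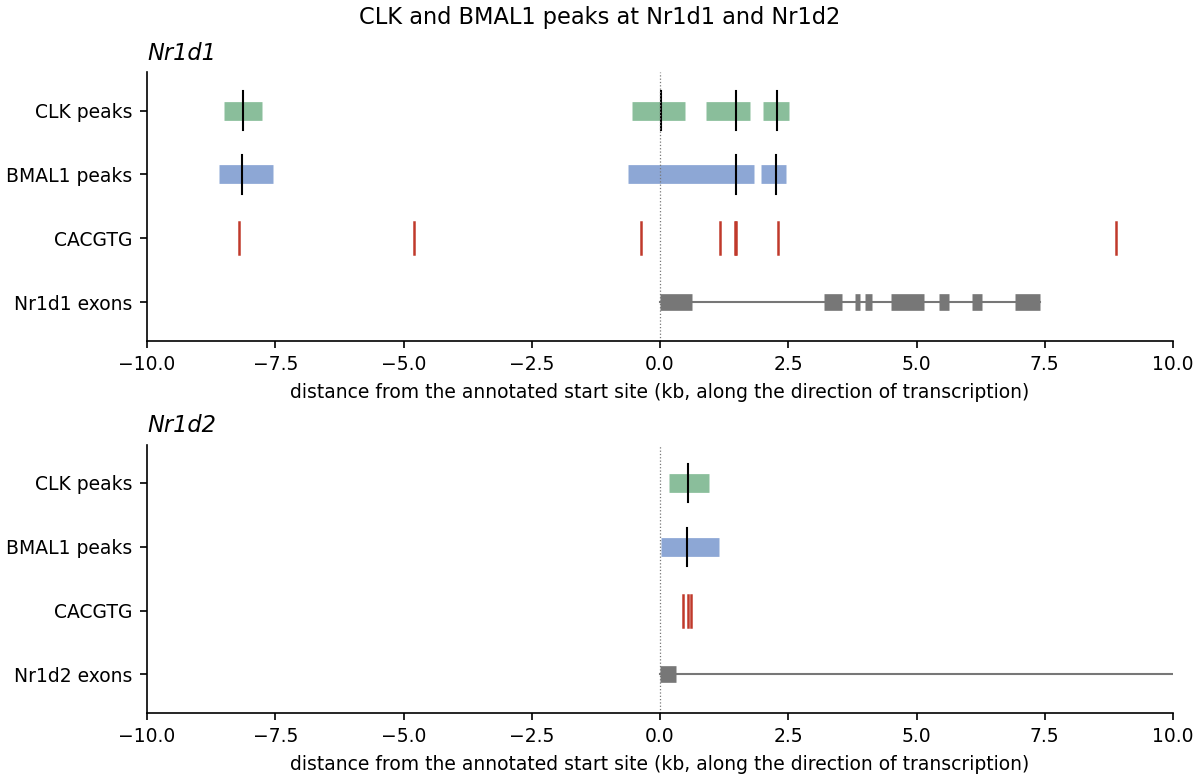
CLK peaks (green bars), BMAL1 peaks (blue bars), every CACGTG within 10 kb (red) and the exons (grey) of Nr1d1 and Nr1d2, drawn against the distance in kb from the GENCODE start site along the direction of transcription, with summits as black lines. Nr1d1 shows 4 CLK and 3 BMAL1 peaks, the widest BMAL1 peak covering both the promoter and the 5′ intron CLK peaks, and Nr1d2 shows 1 peak of each.

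The sequences under the summits are given because they hold the e-boxes to which the values below refer. Each is the plus strand of NCBIM37, 5′ to 3′, and covers 100 bp on either side of the CLK summit. These are chr11:98644680-98644880 for the upstream site, chr11:98635068-98635268 for the 5′ intron site, chr11:98634269-98634469 for the 3′ intron site and chr14:19070996-19071196 for Nr1d2. Capitals mark CACGTG, at the 5′ intron site also the hexamer CACGTC, 1 base from CACGTG and 7 bp before it, and at Nr1d2 also a D-box, the site of the PAR bZIP factors and of E4BP4.
Nr1d1 upstream site: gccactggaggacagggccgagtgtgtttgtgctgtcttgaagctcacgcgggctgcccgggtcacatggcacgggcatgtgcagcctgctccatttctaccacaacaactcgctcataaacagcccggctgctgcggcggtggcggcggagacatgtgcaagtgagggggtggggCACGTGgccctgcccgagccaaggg
Nr1d1 5′ intron site: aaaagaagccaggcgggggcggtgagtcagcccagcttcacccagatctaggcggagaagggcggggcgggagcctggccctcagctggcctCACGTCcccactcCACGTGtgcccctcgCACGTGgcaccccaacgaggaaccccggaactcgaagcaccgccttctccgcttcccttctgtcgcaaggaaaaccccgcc
Nr1d1 3′ intron site: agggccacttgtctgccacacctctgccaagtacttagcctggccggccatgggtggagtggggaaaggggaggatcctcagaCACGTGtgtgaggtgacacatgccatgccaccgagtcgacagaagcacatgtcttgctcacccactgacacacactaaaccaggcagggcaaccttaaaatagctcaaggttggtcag
Nr1d2 site: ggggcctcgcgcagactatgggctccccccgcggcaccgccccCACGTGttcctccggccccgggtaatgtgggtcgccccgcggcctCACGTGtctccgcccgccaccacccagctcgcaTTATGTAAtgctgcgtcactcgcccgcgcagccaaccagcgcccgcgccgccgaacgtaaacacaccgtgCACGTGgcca

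For the promoter site the stretch around its single e-box is shown in place of the summit, which lies in the 5′ UTR and has no CACGTG beside it. It is chr11:98636962-98637061 on the plus strand, before the start of the gene, with CACGTG in capitals and the e-box-like AACGTG, also in capitals, at a gap of 7 bp.
Nr1d1 promoter e-box: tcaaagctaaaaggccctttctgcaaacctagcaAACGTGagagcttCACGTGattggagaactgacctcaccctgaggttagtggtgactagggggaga

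The 5′ intron site was the strongest Nr1d1 site for CLK and lay under the summit of the strongest BMAL1 peak. Its CLK peak held 138 tags (95% interval 116 to 163) with a fold enrichment, the ratio of ChIP signal to local Input background, of 24.02. Of the 759 CLK peaks it ranked 1 by fold enrichment and 4 by score, where the score of 626.27 is 10 times the negative log10 of the peak caller's p-value. The BMAL1 peak over it ranked 1 of 1578 by score, by fold enrichment (36.88) and by tags (382, interval 345 to 422). This BMAL1 peak was 2460 bp wide, the second widest of its list, and extended over the promoter site as well. Its summit lay 5 bp from the CLK summit of the 5′ intron site and 1458 bp from that of the promoter site, so the BMAL1 list gives the promoter site no summit and no strength of its own.

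The promoter site was called as a separate peak for CLK. It held 130 tags (109 to 154), about as many as the 5′ intron peak, in 1028 bp. Its score of 408.98 ranked 6, but its fold enrichment of 9.88 ranked 42. The tag counts of these 2 CLK peaks had overlapping intervals, while their fold enrichments stood at 24.02 and 9.88. The summits were 1463 bp apart and the peaks were separated by 413 bp without a call.

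The upstream site ranked among the strongest of the whole BMAL1 list despite its distance from the gene. BMAL1 held 237 tags there (208 to 269), with a fold enrichment of 35.2 and a score of 1325.9, ranks 2 and 3 of 1578. CLK held 115 tags (94.9 to 138), with a fold enrichment of 12.21 and a score of 332.96, ranks 13 and 8 of 759. The false discovery rate that the peak caller assigned to this CLK peak was 12.5%, against 0% for the promoter and 5′ intron CLK peaks and for all BMAL1 peaks of both genes. This rate did not follow the score, since the 3′ intron CLK peak was given 4.9% with a lower score of 95.59.

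The 3′ intron site was the weakest of the 5, 246 bp from the edge of the 5′ intron CLK peak. CLK held 41 tags (29.4 to 55.6) with a fold enrichment of 9.7 and BMAL1 57 tags (43.2 to 73.9) with a fold enrichment of 17.5. Its CLK score of 95.59 was just under 100, a stricter threshold that the other 4 sites passed in both lists. The promoter site passed it in the BMAL1 list only through the peak it shares with the 5′ intron site. That threshold was passed with both antibodies by 28.0% of the CLK:BMAL1 peaks. The site still lay above the median CLK:BMAL1 peak in score (77.2 for CLK and 119 for BMAL1, here 95.59 and 254.96). Its CLK peak had a false discovery rate of 4.9% from the peak caller.

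Nr1d2 had a single site whose BMAL1 enrichment was close to that of the 2 strongest BMAL1 peaks of Nr1d1. BMAL1 held 163 tags (139 to 190) with a fold enrichment of 34.6, rank 3 of 1578, so the first 3 places by fold enrichment belonged to Nr1d1 and Nr1d2. CLK held 80 tags (63.4 to 99.6) with a fold enrichment of 10.2, rank 33 of 759, and a false discovery rate of 5.56%. By score the Nr1d2 peaks ranked 8 (BMAL1, 870.44) and 18 (CLK, 244.86). The CLK fold enrichment lay between those of the 3′ intron (9.7) and upstream (12.21) sites of Nr1d1.

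**Figure D2:**
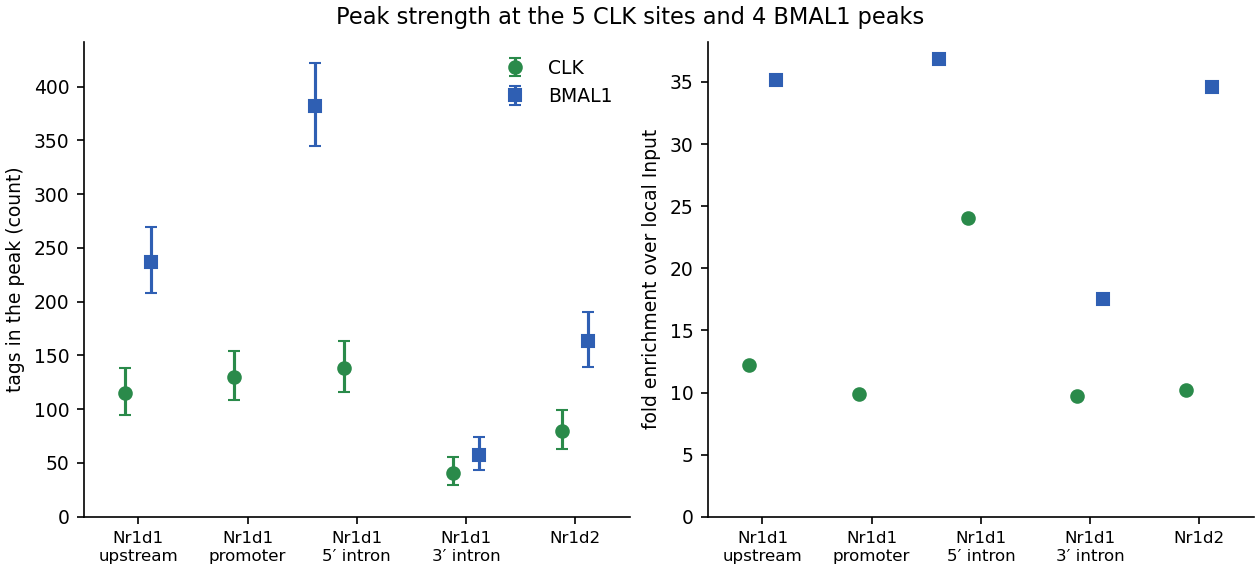
Tags in the peak (left, with exact 95% counting intervals) and fold enrichment over the local Input (right, no error available) at the Nr1d1 and Nr1d2 sites, for CLK (green circles) and BMAL1 (blue squares). The BMAL1 square between promoter and 5′ intron is the single peak of 382 tags that covers both, and fold enrichment of BMAL1 at Nr1d2 (34.6) is near that of the strongest Nr1d1 peaks (36.88 and 35.2) although it holds fewer tags.

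Summed over their peaks, Nr1d1 carried several times the tags of Nr1d2, whereas per kb of peak the genes were close. In the BMAL1 library, the 3 Nr1d1 peaks held 676 tags over 3989 bp and the Nr1d2 peak 163 tags over 1142 bp, a ratio of 4.15 (3.49 to 4.95). In the CLK library, the 4 Nr1d1 peaks held 424 tags over 3146 bp and the Nr1d2 peak 80 over 771 bp, a ratio of 5.30 (4.16 to 6.82). Both Nr1d1 sums include the upstream peak, with 237 BMAL1 and 115 CLK tags, whose row carries the description of Msl1. Without that peak both ratios would be lower. Per kb of peak, the ratio was 1.19 (0.999 to 1.42) for BMAL1 and 1.30 (1.02 to 1.67) for CLK. The strongest peaks by tags alone gave ratios of 2.34 (1.95 to 2.83) and 1.73 (1.30 to 2.30). The highest fold enrichment of Nr1d1 was 1.07 times that of Nr1d2 for BMAL1 and 2.35 times for CLK. By highest fold enrichment alone, the genes stood close for BMAL1 and apart for CLK, through the 5′ intron site of Nr1d1. The other Nr1d1 sites had CLK fold enrichments of 9.7 to 12.21, around the 10.2 of Nr1d2. The strongest peaks by tags are not like units in the 2 libraries. That of BMAL1 at Nr1d1 covers 2 CLK peaks with 268 CLK tags together, of which the strongest CLK peak holds 138. The order of the ratios 2.34 and 1.73 therefore does not compare the libraries, and their intervals overlapped. Per kb the intervals of the libraries overlapped as well.

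Fewer CLK than BMAL1 tags were found at every site once the depth of the libraries was taken into account. The libraries come from different antibodies, so the level of this ratio does not compare the amounts of CLK and BMAL1 bound. With each count divided by the tags its library kept after removal of duplicates, the CLK to BMAL1 ratio was 0.370 (0.294 to 0.464) at the upstream site and 0.374 (0.283 to 0.492) at Nr1d2. It was 0.535 (0.456 to 0.627) over the promoter and 5′ intron sites together and 0.549 (0.358 to 0.834) at the 3′ intron site. The counting intervals of all 4 overlapped, those of the upstream site and of the promoter and 5′ intron sites between 0.456 and 0.464. The median over all 211 BMAL1 peaks with a CLK peak was 0.645 (interquartile range 0.506 to 0.825), and 12 and 13 of these peaks had a lower ratio than the upstream and Nr1d2 sites. In fold enrichment the ratios were 0.347 at the upstream site, 0.295 at Nr1d2, 0.554 at the 3′ intron site and 0.651 at the 5′ intron site, against a median of 0.719. The peaks of the 2 lists differed in width. Per kb of peak, the 4 ratios lay between 0.519 and 0.695, and the 3′ intron site had the lowest.

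**Figure D3:**
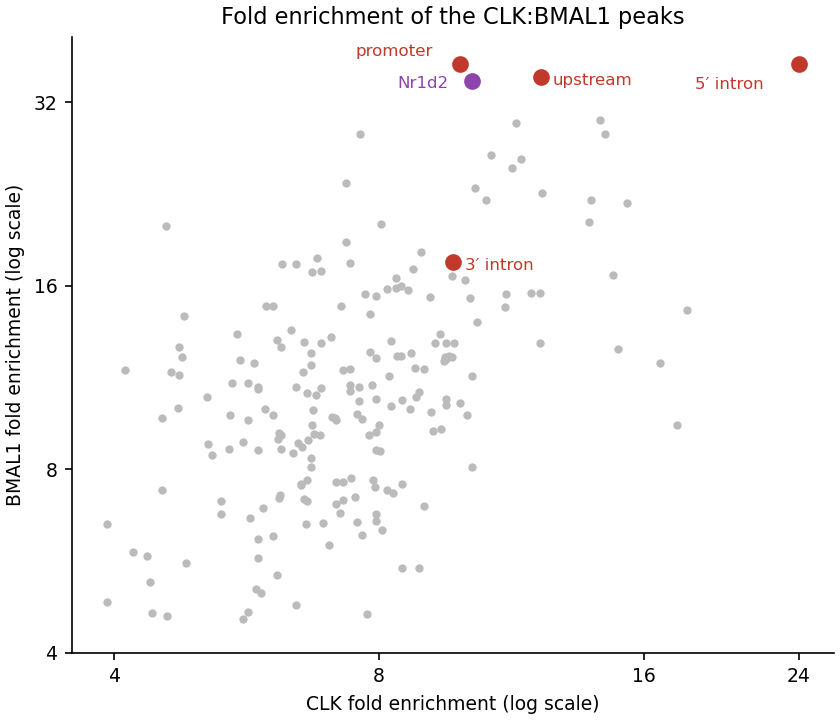
Fold enrichment over the local Input of CLK (x axis) and BMAL1 (y axis), both on log scales, for the 211 CLK:BMAL1 peaks (grey), with the Nr1d1 sites in red and the Nr1d2 site in purple. The promoter and 5′ intron sites share the BMAL1 value of 36.88, and the 5′ intron site has the highest CLK value, 24.02.

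Where both lists gave a summit, the factors sat at nearly the same position. The distance between CLK and BMAL1 summits was 12 bp at the upstream site, 5 bp at the 5′ intron site, 15 bp at the 3′ intron site and 17 bp at Nr1d2, all under the median of 21 bp over the 212 overlapping pairs (interquartile range 11.8 to 46.2). In all 4 pairs the CLK summit had the lower coordinate. Over all 212 pairs 46.7% did so, with a median offset of 2 bp in the other direction.

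E-boxes lay close to the summit at 4 of the 5 sites, in different number and arrangement. A CACGTG within 100 bp of the CLK summit was present at 3 of 4 Nr1d1 sites and at the Nr1d2 site, and in 59.2% of all 211 CLK:BMAL1 peaks. The 5′ intron site, with the highest CLK fold enrichment, had 2, of which the first (98635173 to 98635178) began exactly at the BMAL1 summit and 5 bp from the CLK summit, and the next followed after a gap of 9 bp. Another in the same CLK peak (98635468 to 98635473) began 300 bp from the summit. At the 3′ intron site the single CACGTG (98634352 to 98634357) began 17 bp from the CLK summit, and at the upstream site (98644856 to 98644861) it began 76 bp away. Nr1d2 had 3, at 19071039, 19071084 and 19071187, the middle one starting 12 bp from the CLK summit, with gaps of 39 and 97 bp between them. At least 2 were found in 19.4% of CLK:BMAL1 peaks and at least 3 in 3.32%. The single peak of Nr1d2 thus held as many CACGTG within 100 bp of the summit as the 5′ and 3′ intron peaks of Nr1d1 together.

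The promoter site differed from the others in its e-boxes. No CACGTG lay within 100 bp of its summit, and the one inside the CLK peak (98637009 to 98637014) was 378 bp from the summit and 362 bp before the start of the gene. Within 100 bp it held 4 hexamers with 1 mismatch. Allowing 1 mismatch, the 5 sites held between 3 and 7 hexamers each, and 97.6% of CLK:BMAL1 peaks held at least 1.

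Paired e-boxes, a CACGTG with an e-box-like hexamer of at most 1 mismatch at a gap of 6 or 7 bp, occurred at 2 Nr1d1 sites. They were CACGTC and CACGTG at the 5′ intron site (98635160 to 98635178) and AACGTG and CACGTG at the promoter (98636996 to 98637014), both with a gap of 7 bp. The first lay within 100 bp of the summit, as such a pair did in 11.4% of CLK:BMAL1 peaks, and 12.3% had one anywhere in the CLK peak. Nr1d2 and the other 2 Nr1d1 sites had none within their CLK peaks.

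**Figure D4:**
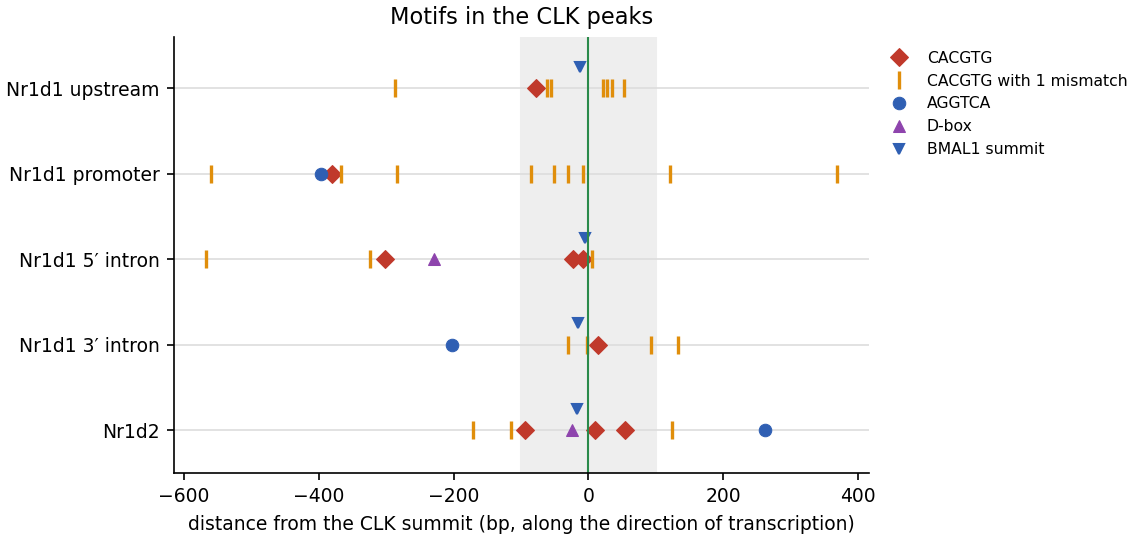
Positions of CACGTG (red diamonds), hexamers with 1 mismatch (orange bars), the D-box (purple triangles) and AGGTCA (blue circles) in each CLK peak, as distance in bp from the CLK summit along the direction of transcription. The grey band marks 100 bp on either side of the summit and inverted triangles mark the BMAL1 summit where the site has one. Each peak but the promoter has a CACGTG within the band, the single one of the promoter peak lies 378 bp from the summit, and the 5′ intron peak has another at 300 bp.

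Sites of other clock factors were searched in the same windows, on both strands. The D-box TTATGTAA was found 21 bp from the CLK summit of Nr1d2, between the middle and the last CACGTG, and 226 bp from the summit in the 5′ intron peak of Nr1d1. TTATGTAA or TTACGTAA was present within 100 bp of the summit in 6.64% of CLK:BMAL1 peaks and anywhere in the CLK peak in 8.53%. AGGTCA, the core of the sites of REV-ERB and ROR receptors, was at none of the 5 summits, against 22.7% of CLK:BMAL1 peaks. It was present once in the CLK peaks of the promoter (394 bp from the summit), the 3′ intron site (200 bp) and Nr1d2 (264 bp), that is in 3 of 5 peaks, and it was present anywhere in the CLK peak at 43.1% of CLK:BMAL1 peaks. A tandem of AGGTCA with 2 bp between the copies was in none of these peaks and in 0% of the windows of all CLK:BMAL1 peaks. In RefSeq promoters (GRCm38.p6, 250 bases before to 50 after the start), CACGTG was in 7.15% of 32851 promoters, and neither the Nr1d1 nor the Nr1d2 promoter held it. AGGTCA was in 16.3% of these promoters, with 1 in that of Nr1d2 and 0 in that of Nr1d1.

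Most CACGTG around the genes were inside peaks. Within 15000 bp of the UCSC start on either side, Nr1d1 had 10 CACGTG, of which 6 lay in a peak of both factors, although peaks covered 13.5% of this window. The centres of the 4 outside peaks lay 3337.5 to 6609.5 bp from the nearest CLK summit. Nr1d2 had 3 in its window, all inside its peak, which covered 3.81%. The 5 CLK peaks of both genes each held at least 1 CACGTG, as did 67.8% of all CLK:BMAL1 peaks, whose CLK peaks had a median width of 500 bp against 516 to 1028 bp here.

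No other BMAL1 peak was called within 100000 bp of either gene. For CLK there was 1, a CLK only peak 34396 bp before the start of Nr1d1 (chr11:98670936-98671216, at Casc3 and Gm12359) with 17 tags and a score of 51.49, near the calling cutoff of 50. Of the 8 neighbouring genes looked up, 7 had no row under their own symbol. Among these was Thra, the thyroid hormone receptor gene whose 3′ end overlaps that of Nr1d1 by 1075 bp. Casc3, at which the CLK only peak lies, and Msl1, whose description the Nr1d1 upstream row carries, were also among them. The exception was Rarb, a retinoic acid receptor gene, with 2 BMAL1 only rows. Of all protein-coding gene symbols in GENCODE M1, 6.70% had a row of any class, so most genes had none.

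Counted as CLK peaks, Nr1d1 had more CLK:BMAL1 peaks than any other named gene. Of 188 gene symbols with such a peak, 176 had 1, 8 had 2, 3 had 3 (Alb, Bhlhe41 and Dbp) and Nr1d1 had 4. Counted as BMAL1 peaks it had 3, level with Alb, Bhlhe41 and Dbp, and with CLK peaks under 1 kb apart merged it had 2, level with 10 other genes. The upstream row, 1 of the 4, carries the symbol of Nr1d1 but the description of Msl1. Without that row, Nr1d1 would not exceed Alb, Bhlhe41 and Dbp. With it, the summed tags of Nr1d1 ranked 1 for BMAL1 and 2 for CLK, after Pck1, and those of Nr1d2 ranked 9 and 15. Among 11 other clock genes activated by CLK:BMAL1, 10 had a CLK:BMAL1 peak (0.724% of all protein-coding gene symbols had one) and Bhlhe40, a repressor of the same dimer, had 2 BMAL1 only rows. The list was drawn up as genes that the dimer activates, with earlier results of these data known, so a high count could be foreseen. The highest BMAL1 fold enrichment per gene had a median of 21.5 over these 10 genes, against 36.88 at Nr1d1 and 34.6 at Nr1d2, and the highest CLK fold enrichment a median of 9.93, against 24.02 and 10.2. Next after Nr1d1 in BMAL1 tags was Dbp, which encodes a PAR bZIP activator, with 508 BMAL1 and 292 CLK tags over 3 peaks and fold enrichments up to 29.89 and 14.28. Just above Nr1d2 in BMAL1 tags was Per2, a repressor of CLK:BMAL1, with 165 BMAL1 and 74 CLK tags in 1 peak, a BMAL1 fold enrichment of 15.33 and no CACGTG within 100 bp of the summit. Gm129 (Ciart), another repressor, had 286 BMAL1 and 206 CLK tags in 1 peak. Per1 had 267 BMAL1 and 249 CLK tags over 2 peaks. Over the 16 CLK:BMAL1 peaks of the list, 9 had a CACGTG within 100 bp of the summit, close to the share of 59.2% over all CLK:BMAL1 peaks. The remaining genes of the list with such a peak were Tef, Bhlhe41, Cry2, Hlf, Per3 and Wee1, whose BMAL1 tags ranged from 25 at Wee1 to 244 at Tef.

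**Figure D5:**
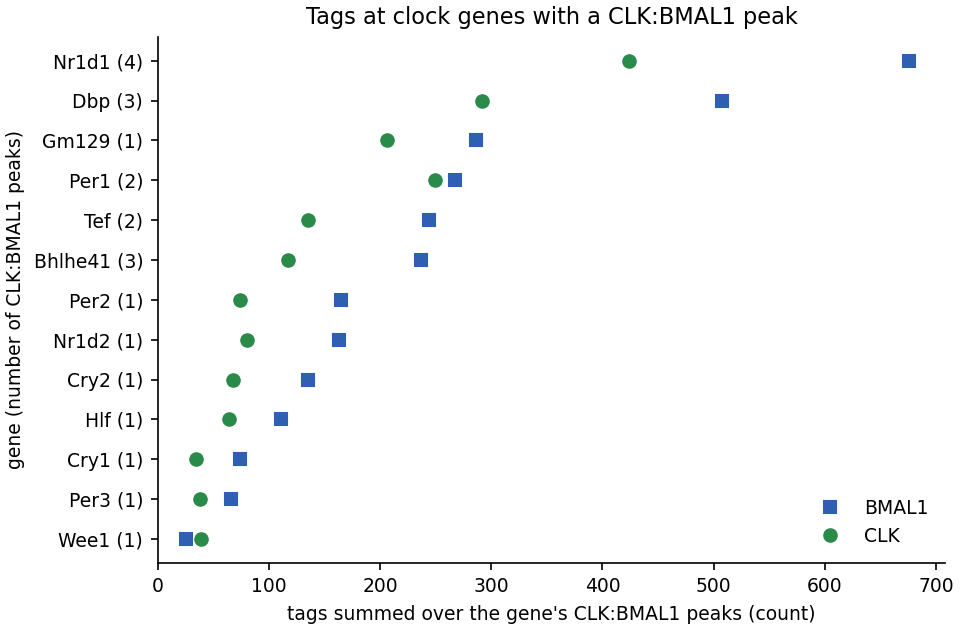
Tags summed over the CLK:BMAL1 peaks of each listed gene with such a peak, for CLK (green circles) and BMAL1 (blue squares), with the number of CLK peaks in parentheses. With its upstream peak included, Nr1d1 has the highest sums of these genes in both libraries (424 CLK and 676 BMAL1 tags). Nr1d2 (80 and 163) lies beside Per2 (74 and 165).

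Genes on which the REV-ERBs act, or with which they act, were looked up in the same table. Of 17 genes of the REV-ERB and ROR loop, 1 had a CLK:BMAL1 peak, Cry1, with 34 CLK and 74 BMAL1 tags and fold enrichments of 6.19 and 12.68. Another 5 had BMAL1 only or CLK only rows (Rora, Rorb, Nfil3, Tbl1x and Tbl1xr1). The other 11 had no row, among them Arntl, the gene of BMAL1, as well as Clock, Npas2 and the corepressor genes Ncor1 and Hdac3. Over all protein-coding gene symbols, 0.724% had a CLK:BMAL1 row and 6.70% a row of any class, so the list stood above both shares. The list was chosen with earlier results of these data known, and the difference was not tested.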

How the data were processed

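Peak calls of 2 ChIP-seq libraries against 1 Input were used. Per the labels and the study's methods, 36 nt reads were mapped to mm9 with bowtie (CASAVA 1.6 upstream) and uniquely mapped reads were kept. The authors called peaks per library with MACS (p-value cutoff 1e-05, with 5 as the model fold and 80 as the band width). The deposited lists give for each peak the count of tags, a score (10 times the negative log10 of the p-value), a fold enrichment (a ratio to the highest local Input background) and a false discovery rate in percent. The deposited table assigns each peak to a gene, and the positions of CLK:BMAL1 peaks in it are those of the CLK list. An overlap of 1 bp joined peaks of different lists. After removal of duplicates, 33057959 CLK, 25217144 BMAL1 and 18206506 Input tags remained. PCR copies are not independent molecules, so intervals cover counting error only.

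Summits were taken as the peak start plus the deposited offset, a position that could be off by 1 bp. Tag counts have exact Poisson intervals and ratios of tags exact conditional (Clopper-Pearson) intervals (python 3.11.15, scipy 1.17.1). Motifs were read from NCBIM37 on both strands, and an e-box window reached 100 bp on each side of the summit. Motif search and intervals were tested on simulated data. With 1 library per group no test between groups was made. The members, the gene lists and the motifs were chosen with earlier results of these data known. Every row of both genes is named, as is every gene of the 2 clock lists with a CLK:BMAL1 peak. Alb and Pck1 were named after their values were seen. Alternatives covered the threshold, the definition of a site, the motif window and the measure of strength.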

Additional observations from a re-analysis of the deposited data

How the results depend on the processing

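With 1 library per group, no library could be left out and no paired fit exists, and peak widths and the calling cutoff bound every value. Of 64 alternative values for 24 results, 37 stayed within the limit set and 27 moved beyond it, the limit being the counting interval of the main value for ratios of tags and 1.5 times the main value for ranks, distances and numbers of sites. Merging CLK peaks under 1 kb apart joined 3 of the 4 Nr1d1 sites, so that 2 were counted in place of 4. The Nr1d1 to Nr1d2 ratio fell to 2.34 (BMAL1) and 1.73 (CLK) with the strongest peaks, to 1.19 and 1.30 per kb and to 1.07 and 2.35 by fold enrichment. By fold enrichment, the CLK ranks moved to 13 (upstream), 42 (promoter), 1 (5′ intron), 45 (3′ intron) and 33 (Nr1d2), and by tags to 19, 15 and 14 at the first 3 sites and 29 at Nr1d2. The BMAL1 ranks moved to 25 by fold enrichment and 103 by tags at the 3′ intron site and to 3 by fold enrichment at Nr1d2. The CLK to BMAL1 ratio became 0.523 (upstream), 0.695 (promoter and 5′ intron) and 0.555 (Nr1d2) per kb, and 0.651 by the fold enrichment of the 5′ intron CLK peak over that of the BMAL1 peak it shares with the promoter. With peak centres, the distances became 53.0 bp (upstream), 636.0 bp (promoter), 723.5 bp (5′ intron) and 60.0 bp (3′ intron). The centre of the BMAL1 peak that covers 2 CLK peaks lies between them, which sets the values at the promoter and 5′ intron sites. For the other changes the cause was not tested. The number of Nr1d1 sites with a CACGTG ranged from 2 (within 50 bp) to 4 (anywhere in the CLK peak, or with 1 mismatch).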

Other observations

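In the annotated table, the row of the Nr1d1 upstream site gives the symbol and the start of Nr1d1, but its exon count of 3 and its description are those of Msl1 (male-specific lethal 1 homolog). The CLK summit of that row lies 8133 bp from the annotated start of Nr1d1 and 12050 bp from that of Msl1. For Nr1d2 the table uses a UCSC transcript of 5 exons and 24457 bp, while the gene spans 35074 bp in GENCODE M1.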
